A study of Homo sapiens with 9 samples.

Results

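The 10 genes described here serve glucose use and the response to low oxygen and were followed in H460 cells that carry the K94/171R form of RUNX3. They were SLC2A1, HK2, PFKFB3, PFKFB4, ALDOA, LDHA, PDK1, CA9, BNIP3 and NDRG1, chosen by name with earlier results of these data known. All 10 were found by Ensembl identifier among the 19869 genes of the K94/171R table. The series holds 9 RNA-seq libraries, 1 for each of 3 lines at 0, 8 and 16 h, so no difference has a replicate check and no test was run. H460 is a human large cell lung cancer line with an activated K-RAS and inactive RUNX3. The 3 stable lines were H460-vec (labelled H460, without the fusion), H460-ERT2-RUNX3 (wild-type RUNX3 fused to the ERT2 domain) and H460-ERT2-RUNX3-K94/171R, in which lysines 94 and 171 were replaced by arginine and the fusion does not bind BRD2. All 3 lines were starved of serum for 24 h, which is the 0 h state, and the 8 and 16 h cells then received 10% serum with 1 μM 4-OHT, the tamoxifen metabolite that lets an ERT2 fusion enter the nucleus. No library with serum alone was analysed here, so serum, 4-OHT and time cannot be told apart within the line. Whether each line is a single clone is not given in the sources used here.

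Glycolysis splits glucose to pyruvate and, through lactate dehydrogenase, to lactate. Many tumour cells run it fast even in air. The hypoxia-inducible factors HIF1A and EPAS1, which are degraded after oxygen-dependent hydroxylation, bind a short DNA element next to genes for glucose transporters, glycolytic enzymes, pyruvate dehydrogenase kinases and pH regulators, and growth factors and MYC act on many of the same genes.

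Promoter sequences are shown for 4 of the genes because they carry the core of that element, ACGTG or GCGTG, close to the start of the gene. They are RefSeq sequences of GRCh38.p14, 5′ to 3′ on the strand of the gene, and the capitals mark each match to the core on either strand, which reads CACGT or CACGC where the core is on the other strand. CACGTG holds the core on both strands and is counted as 2 matches. Positions are counted back from the RefSeq start, which is the base after -1.
LDHA, chr11:18394313-18394562, plus strand, -250 to -1: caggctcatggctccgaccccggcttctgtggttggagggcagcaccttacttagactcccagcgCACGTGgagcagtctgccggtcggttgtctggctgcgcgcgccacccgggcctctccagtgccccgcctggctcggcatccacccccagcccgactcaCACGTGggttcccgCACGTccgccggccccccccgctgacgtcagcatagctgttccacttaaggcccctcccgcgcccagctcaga
HK2, chr2:74834920-74835169, plus strand, second of 2 starts, -250 to -1: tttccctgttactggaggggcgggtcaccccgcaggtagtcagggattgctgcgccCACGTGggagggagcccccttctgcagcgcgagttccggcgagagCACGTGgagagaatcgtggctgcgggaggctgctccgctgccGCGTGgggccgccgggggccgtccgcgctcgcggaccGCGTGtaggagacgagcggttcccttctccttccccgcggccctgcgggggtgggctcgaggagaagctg
BNIP3, chr10:131981968-131982173, minus strand, -250 to -45: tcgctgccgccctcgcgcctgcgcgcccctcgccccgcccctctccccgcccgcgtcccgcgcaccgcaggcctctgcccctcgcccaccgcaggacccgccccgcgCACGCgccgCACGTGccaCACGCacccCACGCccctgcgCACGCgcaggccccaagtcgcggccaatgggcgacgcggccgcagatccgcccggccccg
CA9, chr9:35673898-35673927, plus strand, -30 to -1: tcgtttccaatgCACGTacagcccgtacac
The stretches held 5 matches for LDHA, 6 for HK2, 6 for BNIP3 and 1 for CA9. For LDHA and HK2 the start with more matches is shown. The other start held 1 match for LDHA and 3 for HK2. Over the 250 bases before a start, 13 of the 15 starts listed for 9 of the genes held at least 1 match, against 43.2% of 35116 starts of all genes. Starts of 1 gene can overlap and are not independent. Counted by gene, 8 of the 9 had a match before any start, against 47.4% of 27305 genes. SLC2A1 held none, the first of the PDK1 starts held none, and NDRG1 has no entry. The RUNX core (TGTGGT or TGCGGT, either strand) was found before 6 of the 15 starts, against 16.3% of all starts. These starts belong to 4 of the 9 genes, HK2, BNIP3, LDHA and ALDOA, against 19.3% of all genes. A match describes letters and not binding.

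The K94/171R libraries had similar FPKM sums, which do not measure depth. FPKM, the number of fragments scaled to transcript length and to the mapped fragments of the library, summed to 603652, 588309 and 566164 at 0, 8 and 16 h, and between 10961 and 11140 genes reached FPKM 1 in each. Fragment numbers are unknown, but low FPKM values lie on steps of single fragments. The median step within a fixed window gave depths of 1.04 and 0.993 for the 8 and 16 h libraries relative to 0 h. The window largely fixes these ratios near 1, so they cannot show whether the depths were equal. RUNX3 itself had FPKM 2.12, 0.712 and 2.11 at 0, 8 and 16 h, reads from the introduced and the native gene cannot be told apart, and there is no library without the transgene in this table against which the label could be checked. Of 5 epithelial markers, the keratins KRT8, KRT18 and KRT19 had FPKM of 309 to 698, whereas EPCAM and CDH1 were at or below 0.313. The 14 markers of blood, endothelial, fibroblast, red and alveolar cells that were found in the table were below FPKM 1 in all 3 libraries, summed to 0.466 to 0.831 per library, and 6 of them were listed at 0 throughout.

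A change is log2 of FPKM at one time over FPKM at another, after 0.05 was added to each, and a gene was counted as changed when this was at least 1 in size, that is 2-fold. At 8 h against 0 h, 1 of the 10 genes was higher by this measure, CA9, and none was lower. Of all genes, 2.77% were higher and 4.53% lower. At 16 h against 0 h the same gene passed alone, against 3.11% of all genes higher and 3.36% lower. Between 8 and 16 h none of the 10 passed, against 4.53% higher and 2.95% lower. With so few genes, 1 past the mark is not a result about the set. The comparisons share libraries and are not independent. The median log2 change of the 10 genes was 0.21 at 8 h and 0.27 at 16 h against 0 h, and -0.06 between 8 and 16 h, beside medians of 0.01, -0.01 and -0.02 over the genes with FPKM of at least 1. Over the 9 of the 10 that reached FPKM 1, the medians were 0.19, 0.23 and -0.17. In all genes with FPKM of at least 1 the middle 95% of changes ran from -0.999 to 0.81 at 8 h, from -0.74 to 0.80 at 16 h, and from -0.86 to 1.03 between 8 and 16 h.

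**Figure D1:**
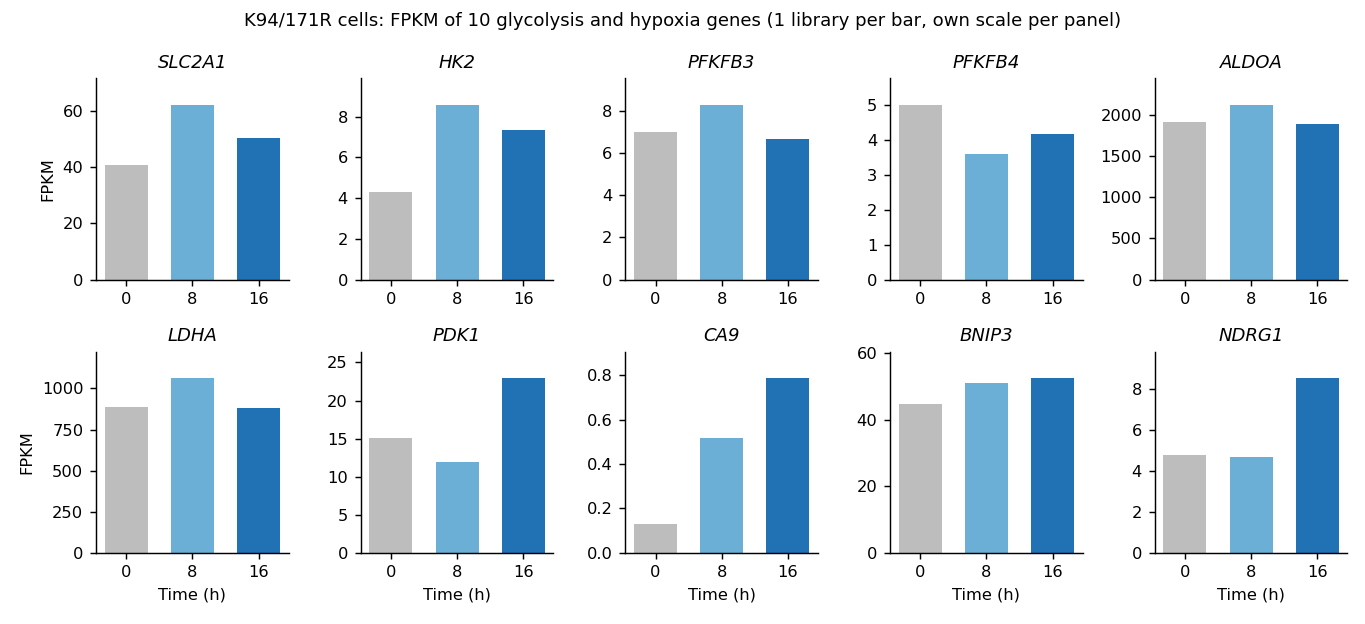
Bars give FPKM (linear axes from 0, each panel on its own scale) at 0, 8 and 16 h in K94/171R cells, 1 library per bar and no error. SLC2A1, HK2, PFKFB3, ALDOA and LDHA stood highest at 8 h, PDK1, CA9, BNIP3 and NDRG1 at 16 h, and PFKFB4 at 0 h.

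Among the 10, 9 genes had FPKM of at least 1, and their order in time differed. Of these 9, 5 were highest at 8 h, 3 at 16 h and 1 at 0 h, while among all genes with FPKM of at least 1 the shares were 38.7%, 31.4% and 29.9%. By any amount, 6 of the 9 were higher at 8 h than at 0 h (50.8% of genes), 5 were higher at 16 h than at 0 h (48.2% of genes), and 4 were higher at 16 h than at 8 h (48% of genes). These counts hold changes near 0 whose sign depends on scaling. With FPKM sums made equal, the 16 h changes from 0 h of PFKFB3, ALDOA and LDHA went from -0.07, -0.02 and -0.01 to 0.02, 0.08 and 0.08. The 8 h change of NDRG1 went from -0.03 to 0.01. Shares of all genes under that scaling were not computed.

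Glucose entry was represented by SLC2A1, which encodes the transporter GLUT1 (ENSG00000117394, hg19 chromosome 1, 43391024 to 43424564, minus strand, 10 exons). The FPKM of SLC2A1 was 40.9 in starved cells, 62.4 after 8 h and 50.6 after 16 h. Its 8 h value was 1.53 times the 0 h value, a log2 change of 0.61, and 5.87% of genes with FPKM of at least 1 were higher by as much. By 16 h the change from 0 h was 0.31. SLC2A3, the gene of the transporter GLUT3, took another course and stood at FPKM 33.4, 33.2 and 76.6, a log2 change of -0.01 at 8 h and of 1.20 at 16 h. Of the FPKM of SLC2A1, SLC2A2, SLC2A3, SLC2A4 and SLC2A14 together, SLC2A1 made up 55% at 0 h, 65.2% at 8 h and 39.7% at 16 h, so that SLC2A3 was the more abundant of the pair only at 16 h. SLC2A14 is a near copy of SLC2A3, and how the authors divided reads between them is not given in the sources used here.

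HK2 encodes a hexokinase that can bind to mitochondria and is raised in many tumours, and it traps glucose as glucose 6-phosphate (ENSG00000159399, chromosome 2, 75061254 to 75120486, plus strand, 18 exons). The FPKM of HK2 was 4.28 in starved cells, 8.60 after 8 h and 7.34 after 16 h. It lay just short of the 2-fold mark at 8 h, with a log2 change of 0.998 and an FPKM ratio of 2.01 with no pseudocount, and 1.28% of genes with FPKM of at least 1 were higher by as much. With a pseudocount of 0.01, or with FPKM sums made equal, HK2 passed the mark. At 16 h its change was 0.77. HK1, the widely expressed hexokinase, was the more abundant throughout at FPKM 38.4, 54.8 and 48.4, and HK2 made up 9.87%, 13.1% and 13% of the hexokinase FPKM. HKDC1, a related gene, stood at 0.629, 2.17 and 0.909 FPKM and was 1.71 higher at 8 h on the log2 scale, a size that depends on the pseudocount.

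PFKFB3 and PFKFB4 encode enzymes that make and remove fructose 2,6-bisphosphate, the activator of phosphofructokinase, and their courses differed. PFKFB3 (ENSG00000170525, chromosome 10, 6186897 to 6296607, plus strand) had FPKM 7.03, 8.31 and 6.69, with log2 changes of 0.24 at 8 h and -0.07 at 16 h. PFKFB4 (ENSG00000114268, chromosome 3, 48555117 to 48599448, minus strand) had FPKM 5.01, 3.59 and 4.17, with changes of -0.47 and -0.26, and was the only one of the 10 genes that was highest in starved cells. UCN2 overlaps PFKFB4 on the same strand. The summed FPKM of the 4 PFKFB genes stayed at 14.6, 14.6 and 14.3. Within it the share of PFKFB3 was 48.1%, 56.8% and 46.6%, that of PFKFB4 was 34.3%, 24.6% and 29.1%, and that of PFKFB2 was 16.9%, 18.2% and 24%.

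ALDOA and LDHA, which encode aldolase A and the lactate dehydrogenase A subunit, were among the most abundant messages of the cells, at ranks 45 and 117 of the table at 0 h. ALDOA (ENSG00000149925, chromosome 16, 30075485 to 30081778, plus strand) had FPKM 1912, 2122 and 1890. LDHA (ENSG00000134333, chromosome 11, 18416107 to 18429972, plus strand) had FPKM 886, 1064 and 879. Both were highest at 8 h and back at the 0 h level at 16 h, with log2 changes of 0.15 and -0.02 for ALDOA and of 0.26 and -0.01 for LDHA. Among 852 genes with a mean FPKM of at least 100, the middle 95% of changes at 8 h ran from -0.43 to 0.63, so both lay well inside it. ALDOA made up 98.7% to 99.1% of aldolase FPKM, and LDHA 53.4% to 57.1% of lactate dehydrogenase FPKM beside LDHB. GENCODE lists 6 pseudogenes named after LDHA and 2 after ALDOA, which can share reads with them.

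PDK1 encodes a kinase that switches off pyruvate dehydrogenase and so limits the entry of pyruvate carbon into the tricarboxylic acid cycle (ENSG00000152256, chromosome 2, 173420101 to 173473397, plus strand). The FPKM of PDK1 was 15.0 in starved cells, 11.97 after 8 h and 23.0 after 16 h. It was lowest at 8 h, and between 8 and 16 h its log2 change was 0.94, a ratio of 1.92, which 3.33% of genes with FPKM of at least 1 reached. By any amount, all 4 kinase genes were lower at 8 h than at 0 h (49.2% of genes with FPKM of at least 1) and higher at 16 h than at 8 h (48% of genes), although PDK3 was lower by a log2 change of only -0.04 and PDK2 was below FPKM 1 at 8 and 16 h. PDK4, the most abundant, stood at FPKM 66.1, 38.1 and 69.2, PDK3 at 7.26, 7.05 and 11.7, and PDK2 at 1.10, 0.319 and 0.877. The summed FPKM of the 4 was 89.4, 57.4 and 104.8. PDK1-AS1 lies on the opposite strand of PDK1, and whether reads were counted by strand is not given in the sources used here.

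CA9 encodes carbonic anhydrase IX, a cell surface enzyme of pH control and a widely used marker of hypoxic tumour cells (ENSG00000107159, chromosome 9, 35673925 to 35681156, plus strand, 11 exons). The FPKM of CA9 was 0.128 in starved cells, 0.518 after 8 h and 0.787 after 16 h, so it stayed below FPKM 1 in every library. Its log2 changes of 1.68 and 2.24 were the largest of the 10 genes. From the single-fragment steps, these values stand for about 2, 9 and 13 fragments, a rough estimate that depends on the window used for the step. If those estimates are taken as counts, the ratio was 4.33 at 8 h (95% Clopper-Pearson interval 0.897 to 41.2) and 6.55 at 16 h (1.48 to 59.8), intervals that cover counting error only. With a pseudocount of 1 the log2 changes were 0.43 and 0.66, short of the 2-fold mark. ARHGEF39 overlaps CA9 on the opposite strand. CA12, the related membrane enzyme, was far more abundant at FPKM 18.3, 33.8 and 26.0 and held 97.1% to 99.3% of the FPKM of CA4, CA9, CA12 and CA14.

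BNIP3 encodes a protein of the outer mitochondrial membrane that takes part in mitophagy and cell death (ENSG00000176171, chromosome 10, 133781188 to 133795471, minus strand). BNIP3 had FPKM 44.9, 51.1 and 52.6, with log2 changes of 0.19 and 0.23. BNIP3L, its closest relative, was lower at 8 h, at FPKM 30.5, 17.7 and 25.4, a change of -0.78. The share of BNIP3 in the pair was 59.6% at 0 h, 74.3% at 8 h and 67.4% at 16 h. GENCODE names 44 BNIP3 pseudogenes, so the level of BNIP3 is uncertain as far as reads were shared with them.

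NDRG1 encodes a cytoplasmic protein induced by hypoxia, metals and differentiation (ENSG00000104419, chromosome 8, 134249418 to 134314265, minus strand). The FPKM of NDRG1 was 4.75 in starved cells, 4.65 after 8 h and 8.52 after 16 h. The first 2 values were nearly equal, and only the 16 h library was higher, with a log2 change of 0.84 against 0 h that 2.2% of genes with FPKM of at least 1 reached. Of its family NDRG2 stood at FPKM 2.90, 2.69 and 4.23, NDRG3 at 19.3, 15.3 and 15.1, and NDRG4 at 6.03, 3.01 and 6.33. PDK1 and NDRG1 had the largest log2 changes of the 10 genes between 8 and 16 h.

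**Figure D2:**
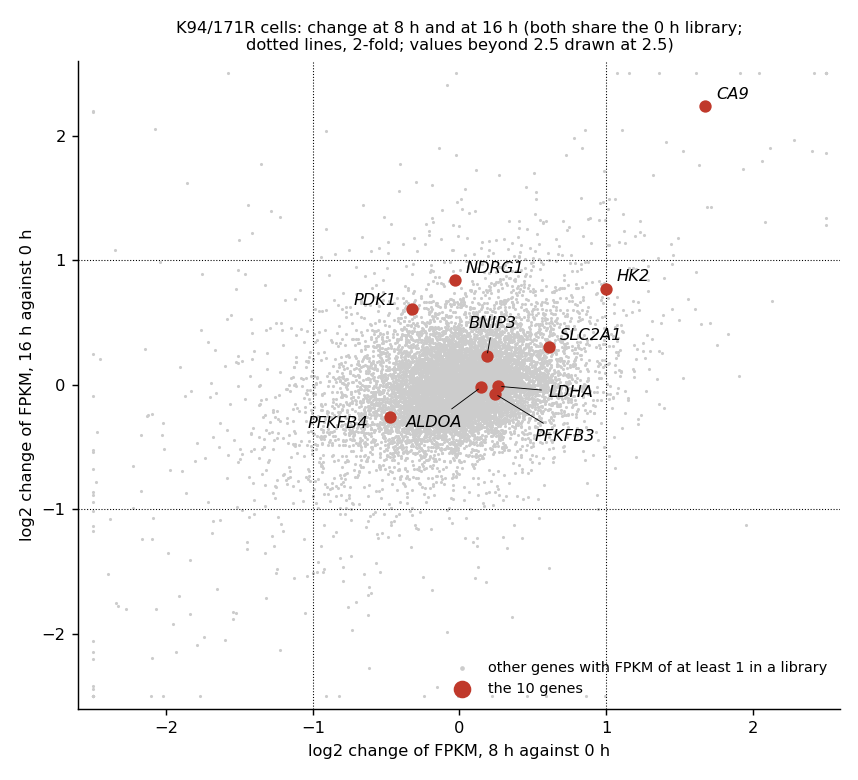
Each point is a gene, with the log2 change of FPKM at 8 h against 0 h on the horizontal axis and at 16 h against 0 h on the vertical axis, both on the same 0 h library. Of the 10 genes in red only CA9 lies beyond 2-fold on both axes, HK2 touches the mark at 8 h, and NDRG1 and PDK1 lie at 0.84 and 0.61 at 16 h with values below 0 at 8 h.

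The rest of glycolysis was described with 27 enzyme genes, of which 19 had FPKM of at least 1. At 8 h, 15 of these 19 were higher than at 0 h by any amount (50.8% of all such genes), with a median log2 change of 0.14. At 16 h, 14 of the 19 were lower than at 8 h (52% of genes), with a median of -0.13. Of 11 reference genes, 8 were also lower at 16 h than at 8 h, with a median of -0.19, so that fall is not particular to the enzymes. The changes of the enzymes were small. HKDC1 was the only enzyme past 2-fold at 8 h, where 1.27% of genes with FPKM of at least 1 were higher and 2.49% lower. It was below FPKM 1 at 0 h, so the size of its change depends on the pseudocount. The steps with the highest FPKM were close in the 3 libraries. GAPDH had FPKM 6579, 6365 and 6314, ENO1 (enolase 1) 2082, 2224 and 1732, and PKM (pyruvate kinase M) 1300, 1425 and 1180. PFKP, the most abundant phosphofructokinase, had FPKM 93.4, 126 and 120. ENO2, the enolase best known from neurons, stood at FPKM 17.1, 27.5 and 37.2 and passed 2-fold at 16 h, with a log2 change of 1.12 (1.47% of genes higher and 1.27% lower). SLC16A3, which encodes the lactate exporter MCT4, had FPKM 138, 235 and 201, a change of 0.76 at 8 h.

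**Figure D3:**
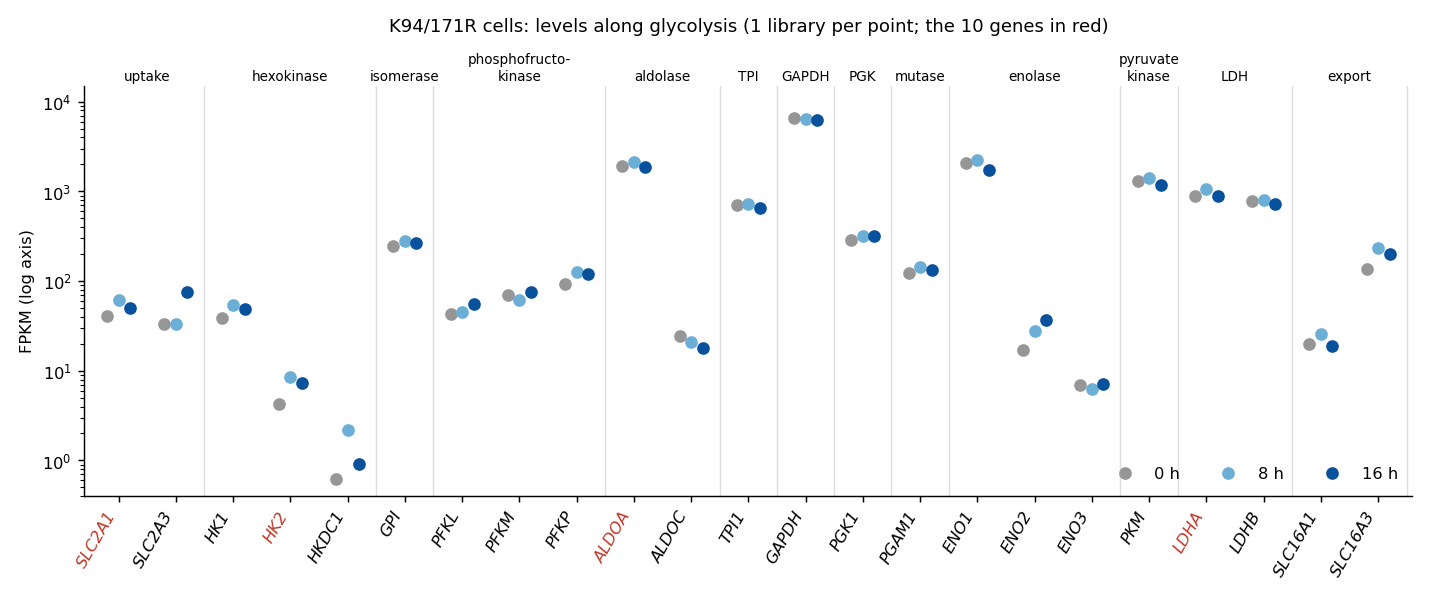
Points give FPKM on a log axis for transporters and enzymes in the order of the pathway at 0 h (grey), 8 h (light blue) and 16 h (dark blue), 1 library per point, with the members of the 10 genes named in red. Levels ran from FPKM 0.629 for HKDC1 to 6579 for GAPDH at 0 h, and the 3 times lie close together at the most abundant steps.

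Among 18 glucose and lactate transporter genes, 11 had FPKM of at least 1. Of these 11, 1 was lower past 2-fold at 8 h (2.49% of genes with FPKM of at least 1), 2 were lower and 1 higher at 16 h against 0 h (1.27% and 1.47% of genes), and 2 were higher at 16 h than at 8 h (2.66% of genes). SLC2A12, a transporter gene of low level, stood at FPKM 2.65, 0.235 and 1.148, with log2 changes of -3.25 at 8 h and -1.17 at 16 h against 0 h and of 2.07 between 8 and 16 h. SLC2A6 was lower at 16 h, at 11.7, 8.47 and 5.46, a change of -1.10. SLC2A3, described above, was the gene that was higher at 16 h against both earlier times. The genes of pyruvate dehydrogenase, its kinases and phosphatases and the pyruvate carrier were mostly lower at 8 h, 11 of 13 by any amount (49.2% of genes), with a median of -0.31. Between 8 and 16 h, 8 of the 12 with FPKM of at least 1 in either library were higher (48% of genes), with a median of 0.21.

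Of 37 genes known as HIF targets, a list that holds all 10 genes, 35 had FPKM of at least 1. At 8 h, 2 of them were higher past 2-fold, STC2 (stanniocalcin 2), at FPKM 22.5, 51.3 and 24.2, and PPFIA4 (a liprin), at FPKM 0.615, 1.86 and 2.40. This is 2 of 35 beside 1.27% of genes with FPKM of at least 1. PPFIA4 was below FPKM 1 at 0 h, so the size of its change depends on the pseudocount. Between 8 and 16 h, 2 of the 35 were lower past 2-fold (1.53% of genes) and none was higher (2.66% of genes). These were STC2, with a log2 change of -1.08, and ADM, the gene of the vessel-relaxing peptide adrenomedullin, at FPKM 11.4, 13.0 and 6.25, with a change of -1.05. VEGFA, the main vessel growth factor, had FPKM 22.8, 25.6 and 18.9, and DDIT4, an inhibitor of mTOR signalling, 259, 320 and 301. Of the 35, 24 were higher at 16 h than at 8 h by any amount (48% of genes), with a median of 0.15.

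The genes of the HIF factors and oxygen sensors varied little. HIF1A had FPKM 71.6, 65.2 and 62.5 and EPAS1 30.1, 30.2 and 26.0. The hydroxylase genes EGLN1, EGLN2 and EGLN3 had 16.6, 15.1 and 7.27 at 0 h and 17.1, 13.3 and 9.37 at 16 h. None of the 14 genes of this list with FPKM of at least 1 passed 2-fold in any comparison. These are messages, and HIF activity is set mainly at the level of the protein. MYC, another activator of glycolytic genes, had FPKM 51.9, 69.2 and 52.7.

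**Figure D4:**
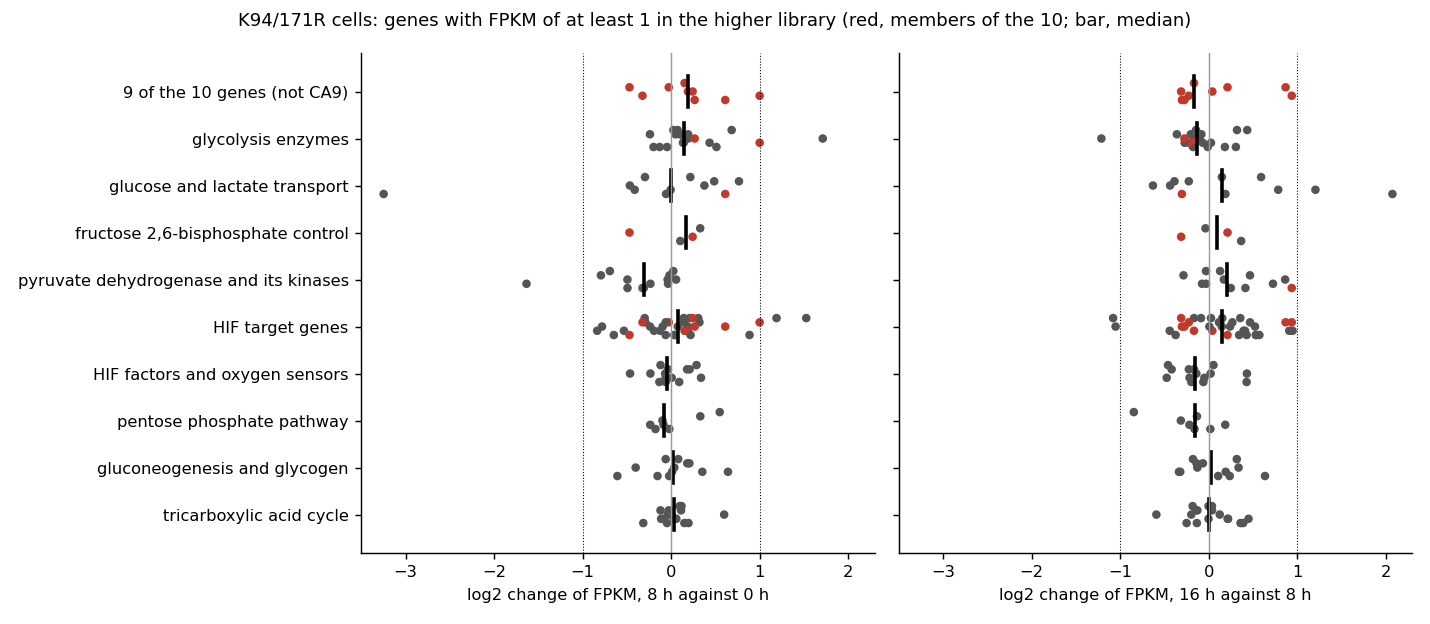
Points are genes that reached FPKM 1 in either library compared, placed by log2 change at 8 h against 0 h (left) and at 16 h against 8 h (right), with members of the 10 in red, dotted lines at 2-fold and a bar at each median. The median of the glycolysis enzymes was 0.14 on the left and -0.13 on the right, and that of the pyruvate dehydrogenase group -0.31 and 0.21. The 11 reference genes, not drawn, had a median of -0.19 at 16 h against 8 h.

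The pentose phosphate genes had median changes of -0.09 at 8 h and -0.30 at 16 h over 7 genes, and none passed 2-fold. The medians over 17 genes of the tricarboxylic acid cycle were 0.03 and 0.04, over 12 genes of gluconeogenesis and glycogen 0.02 and 0.04, and over 5 genes of the serine branch -0.20 and -0.24. The 11 reference genes had medians of 0.00 at 8 h and -0.03 at 16 h against 0 h, and of -0.19 between 8 and 16 h. TXNIP, the glucose-regulated inhibitor of glucose uptake, stood at 70.5, 12.7 and 54.2 FPKM, and the sterol genes INSIG1 and HMGCS1 had log2 changes of -3.02 and -2.66 at 8 h. Of 13 starvation and serum markers with FPKM of at least 1, 8 were lower past 2-fold at 8 h (2.49% of genes with FPKM of at least 1). This list, like the others, was written with earlier results of these data known, so the share beside it is not a test. CCNG2 was higher at 16 h than at 8 h, by 1.69.

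The genes whose changes were nearest to the median pair of the 10 (0.21 at 8 h and 0.27 at 16 h) were SAR1A, NR1H3, FBXW5 and RNPEPL1, with ENSG00000130723, at distances of 0.002 to 0.018 on the log2 scale over the 3 libraries. Of 5753 genes with FPKM of at least 10 throughout, 159 lay within 0.1.

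None of the 10 genes could be paired with a locus in the table of H460-vec and H460-ERT2-RUNX3, whose locus identifiers are paired with symbols only in part. For some genes of the surrounding pathways this was possible, and their changes within each line are given side by side. PFKFB2, the relative of PFKFB3 and PFKFB4, had FPKM 2.04, 4.19 and 3.46 in H460-vec, 1.43, 7.04 and 16.5 in H460-ERT2-RUNX3, and 2.48, 2.66 and 3.44 in K94/171R cells. Its log2 change at 16 h was 0.75, 3.48 and 0.47 in that order. Of all loci in H460-vec, 2.63% were higher and 2.44% lower by 2-fold at 8 h, and 3.42% and 2.57% at 16 h. For H460-ERT2-RUNX3 the shares were 4.4% and 5.09% at 8 h, and 14.3% and 14.9% at 16 h, when its library also had the highest FPKM sum, 780952 against 554359 at 0 h. After FPKM sums were made equal, PFKFB2 at 16 h in H460-ERT2-RUNX3 had a change of 2.998. PPFIA4 passed 2-fold in all 3 lines at both times, with changes at 16 h of 2.61, 2.27 and 1.88, at FPKM no higher than 2.40. With a pseudocount of 1 its changes in H460-vec and H460-ERT2-RUNX3 were 0.56 and 0.37 at 8 h and 1.10 and 0.61 at 16 h, so that only the 16 h change in H460-vec stayed past 2-fold of these 4. The same was not computed for K94/171R, where PPFIA4 had FPKM 0.615 at 0 h. PLOD1, which encodes a collagen lysyl hydroxylase, had FPKM 46.0, 58.6 and 67.1 in H460-vec, 44.7, 40.9 and 18.1 in H460-ERT2-RUNX3, and 89.9, 84.1 and 93.1 in K94/171R.

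PGD, the second dehydrogenase of the pentose phosphate pathway, had log2 changes at 16 h of 0.04, -0.99 and -0.42 in H460-vec, H460-ERT2-RUNX3 and K94/171R. PGM1, which links glycogen to glycolysis, had changes of 0.49, 0.55 and 0.14. PHGDH, the first enzyme of serine synthesis, had changes of 0.40, -0.12 and -0.24, and SDHC, a subunit of succinate dehydrogenase, of 0.23, -0.46 and -0.09. With FPKM sums made equal, the 16 h changes in H460-ERT2-RUNX3 were -1.49 for PGD, which then passed 2-fold, 0.06 for PGM1, -0.61 for PHGDH and -0.95 for SDHC, and that of PGD in H460-vec was -0.07. TXNIP was lower at 8 h in H460-vec (-0.83) and K94/171R (-2.47) and higher in H460-ERT2-RUNX3 (1.06). Differences between lines were not tested, since each rests on 1 library per time.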

How the data were processed

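Total RNA of 9 samples was made into TruSeq Stranded mRNA libraries and sequenced on a NextSeq500. Cutadapt removed adapters according to the study's methods. The submitters' processing notes name STAR 2.5.0, Cuffdiff 2.2.1, Cufflinks and the build hg19. The authors deposited FPKM per gene in 2 tables that were made separately, 1 for the 3 K94/171R libraries and 1 for the other 6, so changes were computed only within a table. The gene annotation and whether strand was used in counting are not given in the sources used here.

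Ensembl identifiers were matched without their version to symbols, and 19494 of 19869 matched. Loci of the other table were paired with symbols through the study's own gene list, as far as it could be read. Gene positions are those of GENCODE release 44 on GRCh37, which is hg19. Depth was estimated from single-transcript genes of more than 800 bases whose FPKM times kilobases lay between 0.05 and 0.12. This window was set after the values were seen and largely fixes the estimate. Log2 changes used a pseudocount of 0.05, which understates the change of low genes. The calculation was run on simulated data with counting error only and changes planted only in genes of FPKM at least 10. This checked the code and does not bear on low genes or on differences between cultures. With 1 library per condition no test was run. Alternatives were other pseudocounts, thresholds and scalings and a filter at FPKM 1. The members and the gene lists were chosen with earlier results of these data known. Genes named outside the 10 were those of the lists with FPKM of at least 10 and a change of at least 1 (at most 3 per list and direction), the most abundant relative of each member, the 5 genes nearest to the median pair, the marker genes, those paired across tables, and others picked after their values were seen as examples of a list. Some genes that the rule names are not reported here. Computations used Python with numpy and pandas.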

Additional observations from a re-analysis of the deposited data

Results flagged for a closer look

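Of the pathway genes followed in several lines, TXNIP and PLOD1 had changes of opposite sign in K94/171R and H460-ERT2-RUNX3 cells with at least 1 of the changes past 2-fold, and these differences were not tested. TXNIP had log2 changes of -2.47 (8 h) and -0.38 (16 h) in K94/171R cells, and of 1.06 and 1.82 in H460-ERT2-RUNX3 cells. PLOD1 had a change at 16 h of 0.0498 in K94/171R and -1.30 in H460-ERT2-RUNX3 cells. With libraries rescaled to equal FPKM sums the change of TXNIP at 8 h in H460-ERT2-RUNX3 cells was 0.88.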

How the results depend on the processing

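The number of the 10 genes past 2-fold, 1 at 8 h and 1 at 16 h against 0 h, rested on CA9 and on the place of HK2 at the mark. With a pseudocount of 1, and likewise with genes below FPKM 1 left out, it was 0 at both times. With a pseudocount of 0.01, and with FPKM sums made equal, it was 2 at 8 h, HK2 and CA9. A threshold of 2 on the log2 scale gave 0 at 8 h. A threshold of 0.5 gave 3 at 8 h, 4 at 16 h and 3 between 8 and 16 h, all of them higher. Over all genes, a pseudocount of 1 lowered the number changed at 8 h from 551 higher and 901 lower to 65 and 126, a pseudocount of 0.01 gave 861 and 1269, the threshold of 2 gave 98 and 198, the threshold of 0.5 gave 1882 and 2347, and the FPKM filter gave 143 and 280. At 16 h the 617 higher and 668 lower were 70 and 71, 945 and 1000, 110 and 152, 1730 and 1659, and 166 and 144 in the same order. Between 8 and 16 h the 900 and 587 were 115 and 83, 1275 and 905, 181 and 117, 2475 and 2055, and 300 and 173. The median of the 10 genes between 8 and 16 h was -0.17 with CA9 left out by the FPKM filter. Rescaling to the same FPKM sum shifted the K94/171R changes by about 0.04 at 8 h and 0.09 at 16 h, and no change of the 10 genes moved by 0.1 under either rescaling. Some changes near 0 still turned from negative to positive with equal sums. These were PFKFB3, ALDOA and LDHA at 16 h and NDRG1 at 8 h, each against 0 h. In the other table, where FPKM sums differ more, 26 of 36 changes moved by 0.1 or more under rescaling and none that was past 2-fold turned its direction. The pseudocount of 1 for the other lines was chosen after seeing the data. No paired analysis was possible because each condition has 1 library, and for the same reason no library could be left out. Genes of low FPKM such as CA9 rest on few fragments, and a culture effect in a single library cannot be told apart from an effect of time.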
